A study of Caenorhabditis elegans with 14 samples.

Results

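The genes described here encode the enzymes that activate fatty acids and shorten them by β-oxidation in Caenorhabditis elegans. They were taken by symbol, as all array elements named acs- (acyl-CoA synthetases), acdh- (acyl-CoA dehydrogenases), ech- (enoyl-CoA hydratases), acox- (acyl-CoA oxidases) or kat-1 (a 3-ketoacyl-CoA thiolase), together with cpt-1 to cpt-6 (carnitine palmitoyltransferases). The rule gave 83 of the 22490 elements, for 60 of 18879 gene names: 31 elements for 23 acs genes, 6 for 6 cpt genes, 19 for 13 acdh genes, 14 for 7 acox genes, 12 for 10 ech genes and 1 for kat-1. The rule uses no measured value, but it was set with earlier results of these data known.

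Fatty acids enter this pathway once an acyl-CoA synthetase has joined them to coenzyme A, and carnitine palmitoyltransferases then carry long chains into mitochondria. There, and in peroxisomes, each round of β-oxidation takes an oxidation (acyl-CoA dehydrogenases in mitochondria, acyl-CoA oxidases in peroxisomes), a hydration, a second oxidation and a thiolytic cleavage that frees acetyl-CoA. In C. elegans the intestine is the main fat store, the peroxisomal branch also trims the side chains of the ascaroside pheromones, and some mitochondrial members belong to a shunt that breaks down propionate.

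CB4856 and N2, both wild-type hermaphrodites, were grown at 24 °C on E. coli OP50, and whole worms were harvested at 40 hr (t1, juvenile), 96 hr (t2, reproductive) and 214 hr (t3, old). The labels call the t1 worms late L3 and the study's methods call them late L4. After t1 the remaining worms spent a period on FUDR, which blocks reproduction, so that age and FUDR exposure cannot be told apart between t2 and t1. Each two-colour array carried CB4856 and N2 of 1 age, so that t1 had 5 arrays, t2 had 4 and t3 had 5. N2 was labelled with Cy3 on replicates 1 to 3, and the dyes were exchanged on replicates 4 and 5. Those last numbers are given here, since the labels number the exchanged-dye arrays 1 and 2, as they do replicates 1 and 2. Whether they share RNA with those replicates is not stated. Below, arrays of 1 age and number share the age and the label number. Nothing in the labels says that the arrays came from separate cultures, so p-values measure the spread between arrays. The RNA came from whole worms, in which fewer cells of a type and less RNA per cell cannot be told apart.

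Median spot intensity was at least 191 on every array over a background of 163 to 183, and 39.3 to 63% of elements were above background, meaning a mean over the local background median plus 2 SD. Of the 83 members, 32 were above background in all 28 channels (CB4856 and N2 on 14 arrays) and 10 in none. Those 10 included every element of 2 genes, acs-23 and acdh-7. No member spot was saturated. Levels are given as normalized log2 intensity, on which a difference of 1 is a 2-fold change, and are compared only within an element, since brightness also depends on the probe. An element was called at an adjusted p under 0.05, with p-values of the limma model adjusted over all 22490 elements.

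Age moved many members and strain moved few. Between t2 and t1, 35 of the 83 members were called (42.2%), against 33.7% of all elements. Of these, 6 were higher and 29 lower at t2, whereas 18.4% of all elements were higher and 15.3% lower. The median change over the members was −0.20, against 0.03 over all elements. Between t3 and t2, 31 members were called (37.3%), against 19.7% of all elements. Here 8 were higher and 23 lower at t3, whereas 9.42% of all elements were higher and 10.3% lower. The strain difference called 2 members at t1 (2.41%), 1 at t2 (1.2%) and 3 at t3 (3.61%), against 2.65% of all elements at t1 (1% higher, 1.65% lower in CB4856), 2.64% at t2 (1.08% higher, 1.56% lower) and 3.42% at t3 (1.57% higher, 1.85% lower). The called members were 1 higher and 1 lower in CB4856 at t1, 1 lower at t2, and 2 higher and 1 lower at t3.

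**Figure D1:**
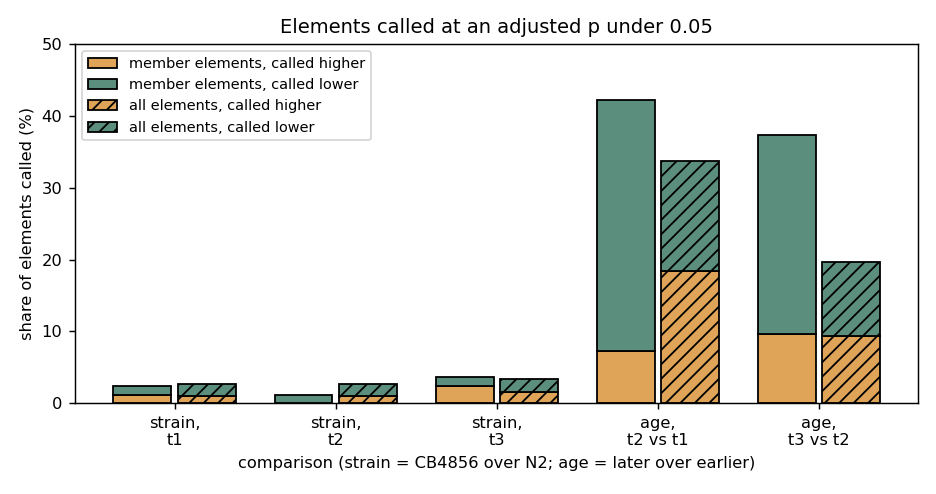
Share of elements called at an adjusted p under 0.05 (y axis, percent) in the 3 strain comparisons and the 2 steps in age (x axis), for the 83 members (plain bars) and all 22490 elements (hatched bars), with the higher and the lower calls stacked. The members' bars exceed those of all elements in both age steps, 42.2% against 33.7% and 37.3% against 19.7%, mostly through calls lower at the later age. For t3 against t2 that split turned when arrays were not normalized to each other, and the calls over all elements were then mostly higher too.

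Most called age changes had the same sign among arrays scanned together. The members were called on these same arrays, and some sessions held a single array of an age. The signs therefore describe the calls and are not independent support. Of the 35 members called between t2 and t1, 33 had the same sign in each of the 4 scan sessions, the exceptions being element 1 of acox-1.3 and acdh-10. The 31 members called between t3 and t2 had the same sign in each of the 3 sessions that held both ages. The t2 arrays serve in both steps, so the steps are not independent. A direct comparison of t3 with t1, added after the values were seen, called 43 members, 9 higher and 34 lower, against 43.5% of all elements (23.9% higher, 19.6% lower). Of these 43, 40 kept their sign without normalization between arrays. All 9 higher calls were then kept, and 14 of the 34 lower ones were lost. The members then called were 16 higher and 20 lower, against 38.1% of all elements (6878 higher, 1685 lower).

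The direction of the t3 changes depended on how arrays were scaled to each other. Without normalization between arrays, the median of all elements between t3 and t2 moved to 0.29 and that of the members to 0.37. The 26 members then called were 25 higher and 1 lower, in place of 8 higher and 23 lower. Of all 22490 elements 31% were then called, 6654 higher and 310 lower, so that the turn was not particular to the members. Relative to the median of all elements the members' median was then 0.08, against −0.07 with quantile normalization. Of the 31 called members, 28 kept their sign (29 relative to that median). Of the 8 called higher at t3, all 8 stayed called, and of the 23 called lower, 1 did, element 3 of acdh-2 (−0.44, adjusted p = 0.033). With Aquantile normalization, another way to scale arrays to each other, 8 members were called higher and 24 lower, and all 31 kept their sign. The calls of lower t3 levels, apart from that one, therefore depend on the arrays being normalized to each other.

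Between t2 and t1, all 35 called members kept their sign without this normalization, and the 18 then called were all lower at t2. Of all elements 16.9% were then called, 1484 higher and 2326 lower. The 6 higher calls were lost, and so were 11 of the 29 lower ones, namely acs-5, acs-14, acs-20, element 2 of acs-23, cpt-2, element 4 of acdh-2, acdh-9, acdh-10, element 3 of acox-1.4, ech-2 and ech-7.

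Marker genes of tissues and cell types moved over the same steps, and their part in the members' changes was not tested. Of all elements, 18.4% were higher and 15.3% lower at t2 than at t1 (median 0.03). Between t3 and t2, 9.42% were higher and 10.3% lower (median 0.01). Of 9 elements for intestinal genes, 6 were lower at t2 than at t1 (median −1.47) and 6 lower at t3 than at t2 (median −0.91). Of 11 muscle elements, 10 were lower at t2 than at t1 and 8 lower at t3 than at t2. Without normalization between arrays, 0 intestinal (median −0.13) and 1 muscle element were called lower at t3. The 6 epidermal elements are all for cuticle collagen genes (dpy-7, dpy-13, col-19, rol-6, bli-1 and sqt-3). Of these 6, 5 were lower at t2 than at t1 (median −4.50, highest change 0.43). Whether collagen levels follow the amount of epidermis was not tested. Of 11 oocyte and embryo elements, 8 were higher at t2 than at t1 (median 2.50). Of 11 sperm elements, 8 were lower at t2 than at t1 (median −1.97) and 4 higher at t3 than at t2 (median 0.92). The summed intestinal level in CB4856 was 15.11 to 15.41 at t1, 13.91 to 14.49 at t2 and 12.55 to 14.20 at t3 on the log2 scale. In N2 it was 15.16 to 15.61 at t1, 13.73 to 14.35 at t2 and 12.20 to 14.17 at t3.

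**Figure D2:**
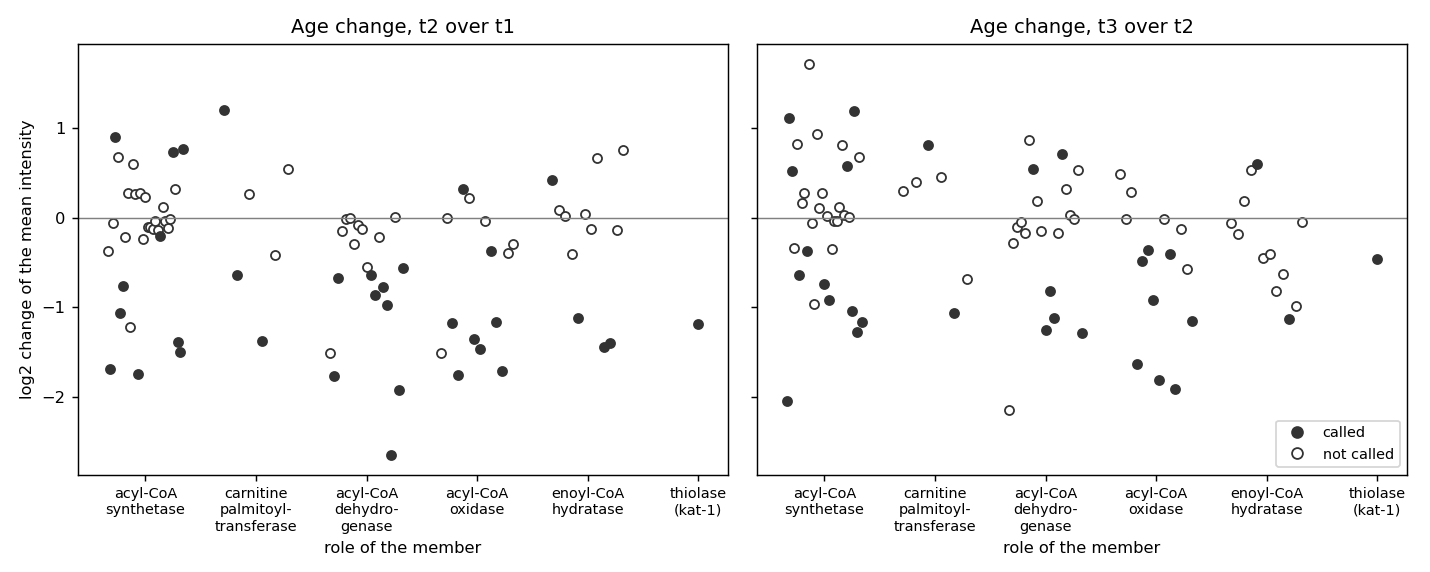
Log2 change of the mean intensity of both strains (y axis) for each of the 83 member elements, grouped by role (x axis), for t2 over t1 (left) and t3 over t2 (right). Filled points passed an adjusted p under 0.05; the called acyl-CoA dehydrogenases all lie below 0 at t2, and the acyl-CoA oxidases have 7 called points below 0 at t2 and 8 at t3.

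Among the acyl-CoA synthetases, the enzymes that activate fatty acids, 3 of 31 elements were higher and 7 lower at t2 than at t1 (median −0.10), and 4 were higher and 8 lower at t3 than at t2 (median 0.02). The strongest loss late in life was in acs-1, which activates monomethyl branched-chain fatty acids. The log2 level of acs-1 by array was 10.85, 11.06, 11.10, 11.04 and 10.86 at t1, 10.19, 10.61, 10.34 and 11.32 at t2, with 8.42, 8.39, 8.34, 8.90 and 8.80 at t3. All t3 arrays lay below all earlier ones. The change was −2.05 between t3 and t2 (SE 0.20, adjusted p = 2.1e-05) and −0.37 between t2 and t1 (SE 0.20, adjusted p = 0.19). The later change was −1.07 (adjusted p = 0.064) without normalization between arrays.

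With quantile normalization the level of acs-5 was lower at each later age without overlap. Its arrays gave 10.56, 11.02, 11.25, 10.54 and 10.99 at t1, 9.61, 9.58, 9.49 and 9.23 at t2, with 8.01, 8.39, 7.96, 8.29 and 8.33 at t3. The change was −1.39 between t2 and t1 (SE 0.15, adjusted p = 1.4e-05) and −1.28 between t3 and t2 (SE 0.15, adjusted p = 0.00011). Neither was called without normalization between arrays (−1.28, adjusted p = 0.077, and −0.44, adjusted p = 0.52). In acs-14 the changes were −1.07 (SE 0.17, adjusted p = 0.00025) and −0.64 (SE 0.17, adjusted p = 0.017), and the later one was 0.36 without normalization between arrays.

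The synthetase acs-4 went the other way. Its level was 11.33, 10.75, 10.88, 11.17 and 11.09 at t1, 11.28, 11.22, 11.66 and 11.33 at t2, with 12.35, 12.67, 12.66, 12.35 and 12.76 at t3. Every t3 array lay above every earlier one, with a change of 1.19 between t3 and t2 (SE 0.14, adjusted p = 7.1e-05). For acs-13 neither step was called, and the change of 1.5 between t3 and t1 was (SE 0.32, adjusted p = 0.0018).

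Higher levels at t2 alone were found for acs-7, a synthetase of gut granules that acts on ascarosides, and acs-3, which in the epidermis limits lipid uptake. The arrays of acs-7 gave 7.57, 8.02, 7.93, 7.62 and 8.09 at t1, 8.41, 8.35, 8.54 and 9.16 at t2, with 7.65, 7.69, 7.72, 6.90 and 7.29 at t3. The changes of acs-7 were 0.77 between t2 and t1 (SE 0.20, adjusted p = 0.0097) and −1.16 between t3 and t2 (SE 0.20, adjusted p = 0.0016). The t2 arrays of acs-7 lay above all others, and without normalization between arrays the changes were 0.62 and −0.53, neither called. Those of acs-3 overlapped with t1, at 6.89, 7.14, 7.44, 6.81 and 7.62 at t1, 7.49, 7.82, 8.08 and 8.25 at t2, with 6.90, 6.97, 6.65, 7.03 and 6.78 at t3. The changes of acs-3 were 0.73 (SE 0.18, adjusted p = 0.0069) and −1.04 (SE 0.18, adjusted p = 0.0016), against 0.49 and −0.55 without that normalization, neither called. For acs-12, levels of 7.09, 7.16, 7.2, 7.33 and 7.87 at t1, 8.60, 7.99, 7.94 and 8.39 at t2, with 8.06, 7.86, 7.96, 7.83 and 7.75 at t3 gave a change of 0.90 between t2 and t1 (SE 0.17, adjusted p = 0.0009), with the t3 arrays overlapping both.

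The reverse pattern, lowest at t2, held for acs-10. Its level was 8.30, 8.55, 7.54, 7.74 and 7.98 at t1, 6.49, 6.54, 6.10 and 6.21 at t2, with 7.81, 7.61, 6.51, 7.65 and 7.64 at t3. The changes of acs-10 were −1.69 between t2 and t1 (SE 0.26, adjusted p = 0.00022) and 1.11 between t3 and t2 (SE 0.26, adjusted p = 0.0096). At t2 it was above background in CB4856 on 1 of 4 arrays and in N2 on 0 of 4, so that its lowest levels are near the limit of detection. One t3 array, replicate 3, was as low as t2.

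For acs-20, a fatty acid transport protein homolog needed for the cuticle barrier, levels were 7.71, 8.01, 9.63, 8.15 and 9.62 at t1, 6.76, 7.03, 7.25 and 6.46 at t2, with 7.27, 7.98, 8.10, 7.74 and 7.92 at t3. All t2 arrays of acs-20 lay below all t1 arrays (change −1.75, SE 0.39, adjusted p = 0.0029). In acs-6 the change was −1.5 between t2 and t1 (SE 0.31, adjusted p = 0.0019), and in acs-15 −0.76 (SE 0.13, adjusted p = 0.0005). The other acs calls were smaller or dim. Of these, acs-11 (0.52) and element 1 of acs-25 (0.58) were higher at t3 than at t2. For acs-25 the t2 level was not above background, and the bound was at least 1.09-fold. Between t3 and t2, acs-17 changed by −0.37 (adjusted p = 0.048), or by 0.28 without normalization between arrays, and elements 1 and 3 of acs-22, a close relative of acs-20, by −0.74 (adjusted p = 0.013) and −0.92 (adjusted p = 0.0096), or by −0.21 and −0.29, neither called, without that normalization. Element 2 of acs-23 was called at t2 (−0.20) with neither age above background and is not a measured change.

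One array decided the result for acs-18. With all arrays its changes were −1.22 between t2 and t1 (SE 0.60, adjusted p = 0.15) and 1.72 between t3 and t2 (adjusted p = 0.061). Without t3 replicate 5, where acs-18 stood at 10.5 against 6.50 to 7.58 on the other t3 arrays, they were −1.22 (adjusted p = 0.0022) and 1.07 (adjusted p = 0.017). The starvation-responsive acs-2, a mitochondrial synthetase, changed by 0.26 between t2 and t1 (adjusted p = 0.62) and by −0.97 between t3 and t2 (SE 0.32, adjusted p = 0.050), and neither was called. No age comparison called acs-16 or acs-19, whose changes between t3 and t1 were 0.06 (SE 0.19) and 0.54 (SE 0.29).

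The carnitine palmitoyltransferases did not move as a group. Of the 6 elements, 1 was higher and 2 lower at t2 than at t1, and 1 was higher and 1 lower at t3 than at t2. The level of cpt-1, which hands long-chain acyl groups to carnitine at the mitochondrion, was 9.23, 10.12, 10.15, 9.74 and 10.19 at t1, 11.51, 10.66, 11.48 and 10.70 at t2, with 10.66, 11.65, 11.44, 11.56 and 11.62 at t3. Every later array of cpt-1 lay above every t1 array, with a change of 1.2 between t2 and t1 (SE 0.27, adjusted p = 0.0033) and 0.30 between t3 and t2 (SE 0.27, adjusted p = 0.50). In cpt-2, which returns the acyl group to coenzyme A inside the mitochondrion, the change between t2 and t1 was −0.64 (SE 0.16, adjusted p = 0.0062).

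The remaining cpt genes are homologs of cpt-1. The level of cpt-4 was 8.5, 8.72, 8.78, 8.63 and 7.90 at t1, 6.83, 7.12, 7.47 and 7.08 at t2, with 7.60, 7.68, 7.82, 7.30 and 7.46 at t3. Its t2 arrays lay below all t1 arrays (−1.38, SE 0.18, adjusted p = 5.3e-05). In cpt-5 the change between t3 and t2 was −1.07 (SE 0.25, adjusted p = 0.010), or −0.57 (adjusted p = 0.25) without normalization between arrays. The level of cpt-3 was 6.00, 6.02, 6.24, 6.07 and 6.11 at t1, 6.05, 6.40, 6.50 and 6.43 at t2, with 7.82, 7.79, 6.31, 7.01 and 6.86 at t3. At t1 and t2 cpt-3 was not above background on any array, so that t3 was at least 1.41-fold higher than t2 (adjusted p = 0.041), a call that was lost when any of 12 of the 14 arrays was left out. For cpt-6 no age comparison was called.

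**Figure D3:**
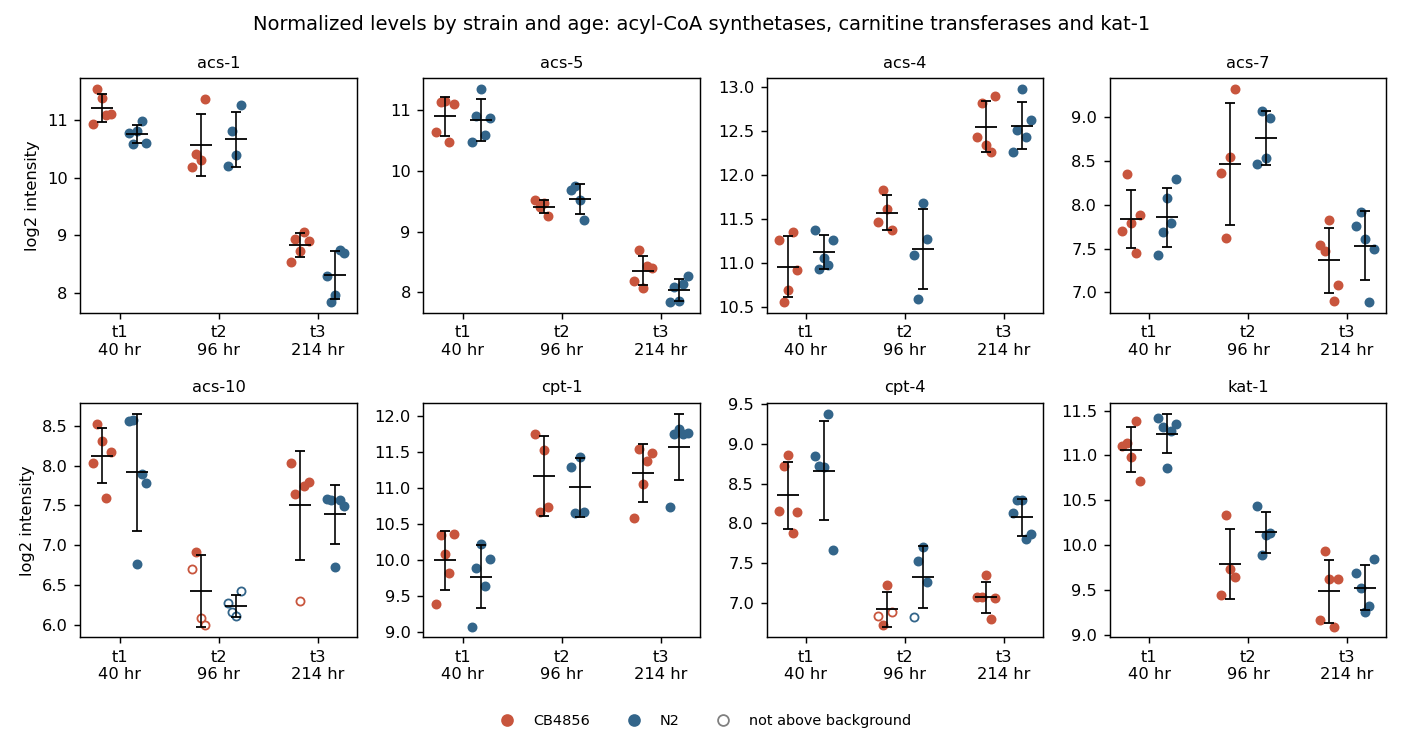
Normalized log2 intensity (y axis) on each array of CB4856 (left in each pair) and N2 at the 3 ages (x axis) for acyl-CoA synthetases, cpt-1, cpt-4 and kat-1; horizontal lines are means, bars 1 SD, and open points not above background. The acs-1 and acs-5 points are lowest at t3, those of acs-4 highest at t3, and the CB4856 points of cpt-4 at t3 lie below those of N2.

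Of the 19 acyl-CoA dehydrogenase elements, 9 were lower and 0 higher at t2 than at t1 (median −0.56), and 4 were lower and 2 higher at t3 than at t2 (median −0.11). Of these 9, all kept their sign without normalization between arrays. The largest change of any member between t2 and t1 was that of acdh-6. Its level was 8.86, 9.57, 8.64, 8.60 and 8.69 at t1, 6.08, 6.35, 6.14 and 6.33 at t2, with 6.12, 6.15, 6.53, 6.21 and 6.27 at t3. At t2 it was above background on no array in either strain, which makes it at least 4.72-fold lower than at t1 (fitted change −2.65, SE 0.17, adjusted p = 1.7e-07). At t3 it was above background on 1 of 5 arrays in each strain.

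The medium-chain dehydrogenase ortholog acdh-8 was also lower at t2. Its level was 8.81, 8.73, 8.01, 8.27 and 8.02 at t1, 6.30, 6.49, 6.46 and 6.53 at t2, with 7.34, 7.03, 6.37, 7.04 and 7.10 at t3, with a change of −1.92 between t2 and t1 (SE 0.20, adjusted p = 9.4e-06). The t2 level of acdh-8 was near the limit, above background on 1 of 4 arrays in CB4856 and 0 of 4 in N2. The related acdh-10 changed by −0.67 (SE 0.22, adjusted p = 0.030). The third gene of this kind, acdh-7, was above background on no array.

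In the dehydrogenase acdh-9 both steps were called, and both calls depended on the scaling. Its level was 10.76, 11.11, 10.67, 10.45 and 10.72 at t1, 10.19, 10.31, 10.10 and 10.11 at t2, with 8.48, 9.12, 9.01, 8.90 and 8.91 at t3. The ages did not overlap, and the changes were −0.56 between t2 and t1 (SE 0.14, adjusted p = 0.0059) and −1.29 between t3 and t2 (SE 0.14, adjusted p = 4.4e-05). They were −0.43 (adjusted p = 0.60) and −0.27 (adjusted p = 0.69) without normalization between arrays. The level of acdh-4 was lowest at t2, with 8.06, 7.2, 7.28, 7.2 and 7.03 at t1, 6.38, 6.69, 6.60 and 6.61 at t2, with 7.52, 7.49, 6.67, 7.23 and 7.48 at t3. Its changes were −0.78 (SE 0.21, adjusted p = 0.011) and 0.71 (SE 0.21, adjusted p = 0.033), with t2 above background on 1 of 4 arrays in each strain. The later call of acdh-4 was kept in 6 of 14 fits that left out 1 array, and lost without any 1 t2 array or t3 replicate 1, 2, 4 or 5. For acdh-5 the change between t2 and t1 was −0.98 (SE 0.21, adjusted p = 0.0027), and element 2 of acdh-13 was higher at t3 than at t2 by 0.54 (SE 0.13, adjusted p = 0.0094). No age comparison called acdh-3, acdh-11 or acdh-12, an ortholog of the very-long-chain dehydrogenase, with changes between t3 and t1 of −0.39 (SE 0.21), −0.19 (SE 0.23) and −0.19 (SE 0.25).

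The gene acdh-1 encodes the first enzyme of the propionate shunt and has 2 elements. Element 2 of acdh-1 gave 8.47, 8.27, 8.48, 8 and 8.51 at t1, 6.56, 6.79, 6.77 and 6.16 at t2, with 6.26, 6.44, 5.84, 6.62 and 6.33 at t3. It was called between t2 and t1 (−1.77, SE 0.17, adjusted p = 4.2e-06). Element 1 of acdh-1 gave 14.17, 13.79, 14.56, 13.86 and 14.25 at t1, 13.08, 13.03, 12.30 and 12.04 at t2, with 10.29, 11.26, 7.35, 11.86 and 11.56 at t3. For element 1 neither step was called (−1.51, adjusted p = 0.13 and −2.15, adjusted p = 0.052), but all t2 arrays lay below all t1 arrays and the change between t3 and t1 was −3.66 (SE 0.68, adjusted p = 0.00059). Its t3 arrays were widely spread, with replicate 3 at 7.35.

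The related acdh-2 has 4 elements, of which element 1 was never above background. Elements 3 and 4 were lower in both steps. They changed by −0.64 (adjusted p = 0.0099) and −0.86 (adjusted p = 0.032) between t2 and t1 and by −0.82 (adjusted p = 0.0048) and −1.12 (adjusted p = 0.015) between t3 and t2. Element 2 was called between t3 and t2 only (−1.25, SE 0.30, adjusted p = 0.011). Without normalization between arrays the later changes of elements 2 and 4 were −0.66 and −0.60, neither called.

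Of 13 elements for 8 other genes of propionate breakdown, 6 were lower, 0 higher and 7 not called at t2 against t1 (median −0.55, against 0.03 over all elements). The change was −3.05 in hphd-1 and −2.16 in element 3 of hach-1, both enzymes of the shunt, −0.62 in mce-1 and −0.55 in mmaa-1, both of the vitamin B12-dependent pathway. Between t3 and t2, only 1 of these 13 elements was called, element 3 of pccb-1 (−0.63), a subunit of propionyl-CoA carboxylase. Without normalization between arrays this change did not keep its sign. Of the 13 elements, 3 were then called higher and 0 lower, with a median of 0.66 against 0.29 over all elements.

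Acyl-CoA oxidases carry out the first oxidation in peroxisomes. Of 14 elements, 7 were lower and 1 higher at t2 than at t1 (median −0.78), and 8 were lower and 0 higher at t3 than at t2 (median −0.45). Without normalization between arrays none of the 8 later calls was kept and 1 other element was called higher, although all 8 kept their sign and the median of the group, −0.16, was −0.45 relative to all elements. The genes acox-1.1 to acox-1.4 are neighbours on chromosome I and similar in sequence, and cross-hybridization between their probes was not tested.

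Element 3 of acox-1.2 had the largest change over the whole age range among the oxidases. It gave 10.23, 10.59, 11.02, 10.25 and 10.63 at t1, 8.72, 8.94, 8.53 and 8.95 at t2, with 6.92, 7.53, 6.75, 7.48 and 7.11 at t3. Without overlap between ages, the changes of acox-1.2 were −1.76 between t2 and t1 (SE 0.19, adjusted p = 1.2e-05) and −1.63 between t3 and t2 (SE 0.19, adjusted p = 9.1e-05). The later one was −1.02 (adjusted p = 0.10) without normalization between arrays. Element 2 of acox-1.2 was called for t2 against t1 (−1.18, SE 0.36, adjusted p = 0.020).

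Element 4 of acox-1.3 gave 10.70, 10.72, 11, 10.41 and 10.8 at t1, 9.14, 9.04, 9.03 and 9.83 at t2, with 7.21, 7.70, 6.78, 7.94 and 7.64 at t3. Its changes were −1.47 (SE 0.23, adjusted p = 0.00025) and −1.81 (SE 0.23, adjusted p = 0.00016). Element 3 of acox-1.4 gave 10.69, 10.8, 11.19, 10.21 and 11.15 at t1, 9.30, 9.65, 9.53 and 10.10 at t2, with 7.89, 7.94, 6.91, 8.10 and 7.86 at t3. Its changes were −1.16 (SE 0.26, adjusted p = 0.0032) and −1.91 (SE 0.26, adjusted p = 0.00025). Both elements were thus lowest at t3, with no overlap between neighbouring ages, and without normalization between arrays the later changes were −1.13 (adjusted p = 0.060) for acox-1.3 and −1.2 (adjusted p = 0.075) for acox-1.4. Element 2 of acox-1.4 was also lower in both steps, with changes of −0.37 (adjusted p = 0.042) and −0.41 (adjusted p = 0.039).

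Elements of 1 gene did not all respond alike. Element 3 of acox-1.3 changed by −1.36 (SE 0.18, adjusted p = 7.3e-05) and −0.92 (SE 0.18, adjusted p = 0.0037), the later one −0.48 and not called without normalization between arrays. The dim element 1 of acox-1.3 gave 6.24, 6.16, 6.15, 6.27 and 6.42 at t1, 6.23, 6.50, 6.83 and 6.70 at t2, with 6.02, 5.97, 6.11, 6.11 and 6.15 at t3. It was called higher at t2 (0.32, SE 0.11, adjusted p = 0.035), with t1 not above background and a bound of at least 1.05-fold. Element 2 of acox-1.3 was called between t3 and t2 (−0.36) with neither age above background and is not a measured change.

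The level of acox-1.5 was 8.86, 9.70, 8.88, 8.68 and 9.29 at t1, 7, 7.43, 7.23 and 7.81 at t2, with 6.96, 7.03, 8.27, 7.06 and 6.89 at t3. The change was −1.71 between t2 and t1 (SE 0.29, adjusted p = 0.00043) and −0.13 between t3 and t2 (SE 0.29, adjusted p = 0.82). For acox-3 the later of the steps was called (−1.15, SE 0.35, adjusted p = 0.034, or −0.38, adjusted p = 0.61, without normalization between arrays), and for acox-1.6 only the change between t3 and t1 (−0.97, SE 0.19, adjusted p = 0.001).

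A single array hid the change of acox-1.1. It gave 9.41, 9.43, 9.78, 9.75 and 9.67 at t1, 8.04, 7.89, 7.89 and 8.58 at t2, with 7.67, 7.83, 7.46, 7.60 and 12.40 at t3, the last on replicate 5. With all arrays no age comparison of acox-1.1 was called (t2 against t1 −1.51, SE 0.81, adjusted p = 0.19). Without t3 replicate 5 the change between t2 and t1 was −1.51 (SE 0.15, adjusted p = 7.3e-06), that between t3 and t2 −0.46 (adjusted p = 0.060) and that between t3 and t1 −1.97 (adjusted p = 6.1e-07).

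**Figure D4:**
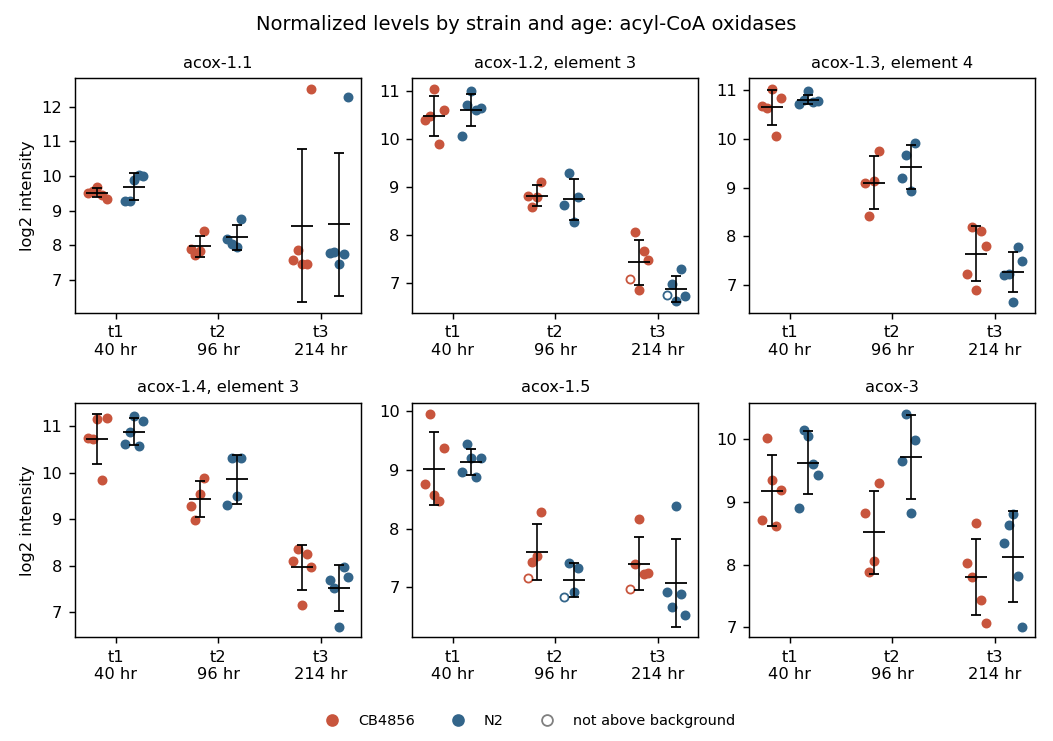
Normalized log2 intensity (y axis) on each array of CB4856 (left in each pair) and N2 at the 3 ages (x axis) for 6 acyl-CoA oxidase elements; horizontal lines are means, bars 1 SD, and open points not above background. Elements of acox-1.2, acox-1.3 and acox-1.4 are lower at each later age in both strains, and the t3 replicate 5 array of acox-1.1, at a mean of 12.40, stands apart in both channels.

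The partner enzymes of the peroxisome moved in both directions. Of 25 elements for 20 other peroxisomal genes, 6 were lower and 1 higher at t2 than at t1, and 8 were lower and 1 higher at t3 than at t2, or 0 lower and 2 higher without normalization between arrays. Enzymes that act after the oxidases in ascaroside side-chain shortening were lower in both steps. The thiolase daf-22 changed by −0.78 and −1.19, and the hydroxyacyl-CoA dehydrogenase dhs-28 by −0.76 and −1.28. The transporter pmp-5 had the largest change between t2 and t1 (−3.33).

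Enoyl-CoA hydratases add water to the double bond, and kat-1 releases acetyl-CoA in mitochondria. Of 12 ech elements, 3 were lower and 1 higher at t2 than at t1 (median −0.06), and 1 was lower and 1 higher at t3 than at t2 (median −0.30). The level of ech-6, the hydratase of the propionate shunt, was 13.32, 13.01, 13.72, 13.01 and 13.44 at t1, 11.98, 11.91, 11.83 and 11.67 at t2, with 11.46, 11.24, 10.39, 11.56 and 11.45 at t3. The ages of ech-6 did not overlap, with changes of −1.45 (SE 0.22, adjusted p = 0.00018) and −0.63 (SE 0.22, adjusted p = 0.063), the later one being 0.37 without normalization between arrays. In ech-7 the changes were −1.4 (SE 0.25, adjusted p = 0.00064) and −1.13 (SE 0.25, adjusted p = 0.0067), and without that normalization −1.24 (adjusted p = 0.14) and −0.31 (adjusted p = 0.71).

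The level of ech-2 was 10.29, 9.92, 9.88, 10.16 and 10.05 at t1, 9.16, 9.01, 8.87 and 8.71 at t2, with 9.68, 9.67, 9.16, 9.44 and 9.72 at t3. Its t2 arrays were the lowest and touched t3 at 9.16, with changes of −1.12 between t2 and t1 (SE 0.13, adjusted p = 2.3e-05) and 0.60 between t3 and t2 (SE 0.13, adjusted p = 0.0069). The dim ech-1.1, a homolog of the α subunit of the mitochondrial trifunctional enzyme, gave 6.27, 6.34, 6.21, 6.30 and 6.08 at t1, 6.88, 6.42, 6.66 and 6.69 at t2, with 6.63, 6.50, 6.57, 6.69 and 6.63 at t3. With t1 not above background, ech-1.1 at t2 was at least 1.11-fold higher (fitted change 0.42, SE 0.09, adjusted p = 0.002). Of its paralog ech-1.2, none of the 3 elements was called in any age comparison.

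The level of kat-1 was 11.27, 11.23, 10.92, 11.33 and 11.03 at t1, 9.94, 10.12, 9.92 and 9.89 at t2, with 9.42, 9.73, 9.44, 9.20 and 9.74 at t3. The ages did not overlap. The change was −1.19 between t2 and t1 (SE 0.12, adjusted p = 6.2e-06) and −0.46 between t3 and t2 (SE 0.12, adjusted p = 0.016), the later one being 0.68 without normalization between arrays. Of 13 elements for other mitochondrial genes that work with these enzymes, 6 were lower and 0 higher at t2 than at t1 (median −0.69), among them hacd-1 (−1.4), a hydroxyacyl-CoA dehydrogenase, ivd-1 (−1.33), isovaleryl-CoA dehydrogenase, etfa-1 (−0.79), a subunit of the electron transfer flavoprotein, and acaa-2 (−0.79), a thiolase. Between t3 and t2, 3 of the 13 were lower and 1 higher, the higher one being ivd-1 (0.97), or 0 lower and 5 higher without normalization between arrays.

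Genes on either side of β-oxidation were counted in the same way. Of 14 elements for fatty acid synthesis and elongation, 9 were lower and 0 higher at t2 than at t1, with −2.26 in the elongase elo-2, −1.95 in elo-4 and −1.92 in elo-1. Of 21 elements for lipases and lipid droplets, 4 were higher and 1 lower, with 0.89 in the lipase lipl-7, 0.80 in the droplet protein plin-1 and 0.62 in element 2 of atgl-1, a triglyceride lipase. Between t3 and t2, 6 of these 21 were lower and 2 higher, led by lipl-5 (element 1, −3.07) and dgat-2 (−2.49), and hosl-1, a hormone-sensitive lipase homolog, was higher (1.24). Those counts were 1 lower and 3 higher without normalization between arrays. Of 32 elements for transcriptional regulators of lipid metabolism, 3 were called between t2 and t1, nhr-68 (−1), element 4 of nhr-66 (0.60) and element 2 of mdt-15 (−0.25). Each of these lists was read against the 33.7% and 19.7% of all elements called in the corresponding step.

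The strain difference, CB4856 over N2 within an array, was largest for ech-5, a predicted enoyl-CoA hydratase on chromosome IV. At t1 ech-5 stood at 8.44, 7.43, 8.49, 8.76 and 8.19 in CB4856, against 5.96, 6.35, 6.42, 6.14 and 6.14 in N2, where it was above background on 0 of 5 arrays. CB4856 was thus at least 2.92-fold higher (fitted log2 ratio 2.12, SE 0.28, adjusted p = 0.00056). At t3 ech-5 stood at 7.54, 7.66, 8.18, 8.16 and 7.91 in CB4856, against 6.35, 6.44, 6.26, 6.13 and 6.08 in N2 (log2 ratio 1.69, SE 0.28, adjusted p = 0.004). The strains did not overlap at either age. The N2 levels at t3 were close to those at t1 and thus near the limit of detection. Both calls of ech-5 were kept without any 1 array and lost when arrays of 1 age and number were averaged. The t3 call was also lost with only spots of scanner flag code 3.

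At t2 ech-5 stood at 7.19, 7.71, 10.74 and 7.23 in CB4856, against 6.32, 6.24, 11.73 and 5.96 in N2. Replicate 3 was bright in both strains and lower in CB4856. With it the log2 ratio of ech-5 at t2 was 0.80 (SE 0.32, adjusted p = 0.27), and without it 1.27 (SE 0.24, adjusted p = 0.014).

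The other strain calls were weaker. At t1, element 3 of acdh-2 stood at 7.50, 6.48, 7.24, 7.99 and 7.04 in CB4856, against 8.76, 8.90, 7.33, 8.55 and 7.96 in N2. It was lower in CB4856 on 5 of 5 arrays (log2 ratio −1.05, SE 0.25, adjusted p = 0.040), and the groups overlapped. Elements 2 and 4 of acdh-2 had log2 ratios of −1.03 (adjusted p = 0.10) and −1.01 (adjusted p = 0.12) at t1 and, at t3, 0.29 and 0.21, neither called. The call of element 3 was kept without t1 replicate 3 or t2 replicate 2 and lost without any other array.

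At t2, acox-3 stood at 8.83, 7.88, 8.06 and 9.30 in CB4856, against 9.65, 10.41, 8.82 and 9.99 in N2 (log2 ratio −1.16, SE 0.27, adjusted p = 0.036). It was lower in CB4856 on 4 of 4 arrays, with a ratio of −2.53 on replicate 2 and −0.82 to −0.69 on the others. The call was lost without t1 replicate 1 or 5, t2 replicate 1, 2 or 4, or t3 replicate 1 or 4.

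At t3, cpt-4 stood at 7.08, 7.07, 7.35, 6.80 and 7.06 in CB4856, against 8.13, 8.29, 8.29, 7.80 and 7.87 in N2, with no overlap (log2 ratio −1.01, SE 0.22, adjusted p = 0.023). The ratio of cpt-4 was −0.32 at t1 and −0.42 at t2, neither called, and the call at t3 was lost without t3 replicate 1, 2, 4 or 5.

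Element 1 of acdh-1 was the last call at t3, with 10.8, 12.94, 8.47, 11.99 and 11.44 in CB4856, against 9.78, 9.57, 6.23, 11.74 and 11.67 in N2 (log2 ratio 1.21, SE 0.29, adjusted p = 0.039). The ratio of acdh-1 was 1.01 to 3.38 on the 3 arrays with N2 in Cy3, and 0.25 and −0.23 on the 2 with exchanged dyes. Element 2 of acdh-1 had a ratio of 0.20 at t3 and was not called.

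The call of element 1 of acdh-1 was lost without the dye term, and it was kept in 7 of the 14 fits that left out 1 array. For none of these 5 elements was it tested whether the sequence under the probe differs between the strains, and unequal hybridization and unequal transcript level cannot be told apart for them. At t3, 3 of 11 muscle, 2 of 9 intestinal and 1 of 6 epidermal marker elements were higher in CB4856 and 0 lower, with medians of 0.45, 0.43 and 0.71. Of all elements 1.57% were higher and 1.85% lower in CB4856 at t3, with a median of 0.02. Among them were unc-54 and unc-27 (1.18 each, muscle), ifb-2 (element 3, 0.60, intestine) and the cuticle collagen gene rol-6 (1.31, epidermis). Their part in the strain differences was not tested. Among the mitochondrial partner genes, hadb-1, the β subunit homolog of the trifunctional enzyme, was higher in CB4856, with a log2 ratio of 0.47 at t2 (adjusted p = 0.0079) and of 0.50 in the t3 worms (adjusted p = 0.0016). Other lists held strain calls too. Lipases and lipid droplets had 1, 1 and 2 of 21 elements higher in CB4856 at t1, t2 and t3. Propionate breakdown had 1 of 13 higher at t2 and at t3. The peroxisomal list had 1 of 25 lower at t1, and the regulators 1 of 32 lower at t2. Of all elements 2.65%, 2.64% and 3.42% were called at the 3 ages.

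Leaving out t1 replicate 3 raised the strain calls among the members to 6 at t1 and 4 at t2, while the share of all elements called rose to 3.98% at t1 and 2.93% at t2. The genes that joined were acs-22, a fatty acid transport protein homolog, element 2 of acox-1.2, and at t2 acs-3. Element 4 of acs-22 stood at 7.46, 6.51, 7.61, 6.93 and 6.44 in CB4856 at t1, against 8.35, 8.16, 6.41, 8.23 and 7.50 in N2, lower in CB4856 on every array but replicate 3. With all arrays its log2 ratio was −0.75 at t1, −0.95 at t2 and −0.53 at t3, none called. Without t1 replicate 3 the t1 ratio was −1.23 (adjusted p = 0.0029). That fit drops the only contrary t1 value, so its p-value is no support for a strain difference.

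**Figure D5:**
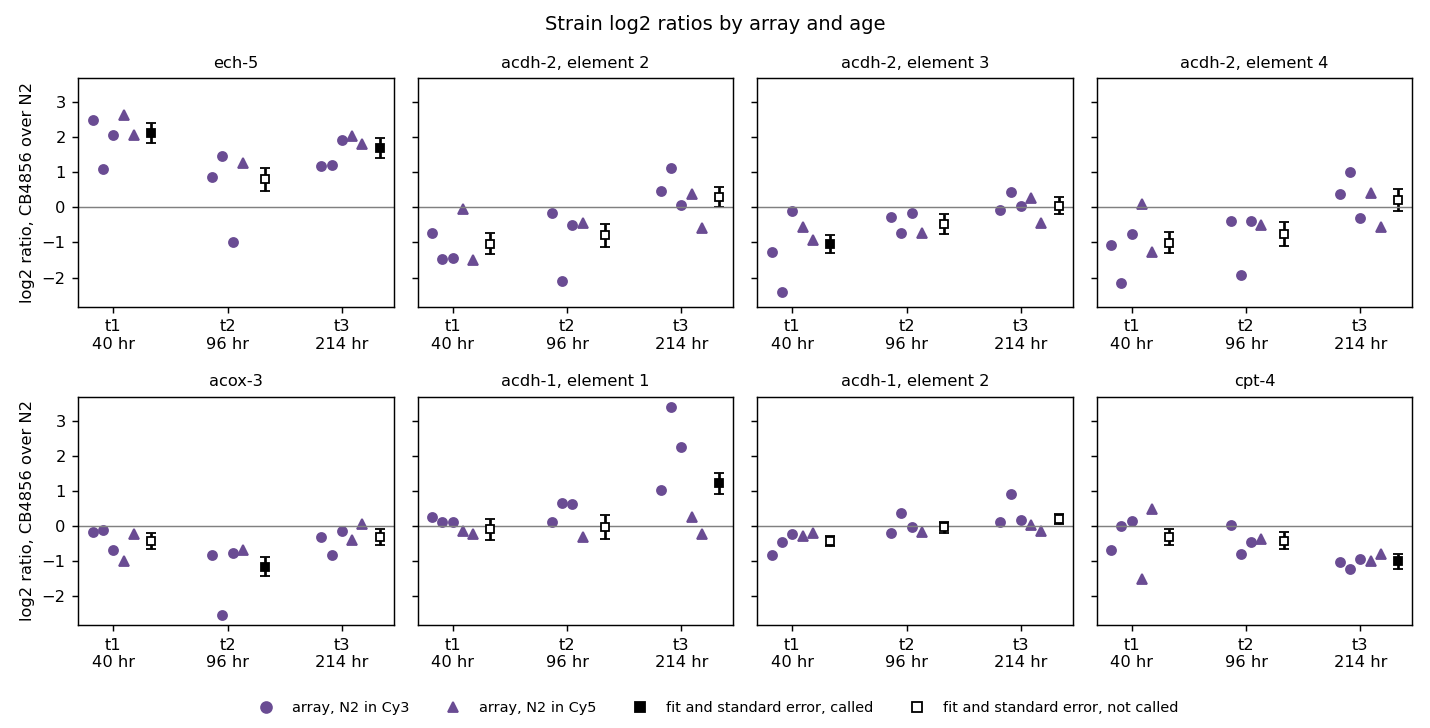
Log2 ratio of CB4856 over N2 (y axis) on each array at the 3 ages (x axis) for elements with a strain call and other elements of the same genes; circles are arrays with N2 in Cy3, triangles those with N2 in Cy5, and squares the fitted ratio with its standard error, filled where called. The ech-5 ratios lie above 0 on all arrays but t2 replicate 3, and the 3 high t3 ratios of acdh-1 element 1 are all from arrays with N2 in Cy3.

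Whether the strain difference itself changed with age was tested as the difference of log2 ratios between ages. No member was called, with 7 members at an unadjusted p under 0.05 for t2 against t1, 12 for t3 against t2 and 13 for t3 against t1. Over all elements 0.734%, 0.187% and 0.978% were called. The lowest adjusted p of the members was 0.12, for cpt-1 between t3 and t1. On the t3 arrays cpt-1 stood at 10.58, 11.54, 11.06, 11.37 and 11.48 in CB4856, against 10.74, 11.75, 11.82, 11.75 and 11.76 in N2, lower in CB4856 on 5 of 5 arrays. On the t1 arrays it was higher in CB4856 on 4 of 5, and the log2 ratio differed by −0.58 (SE 0.15).

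Fits of the age steps within each strain gave similar counts for the first step. Between t2 and t1, CB4856 had 31 members called (4 higher, 27 lower), against 28.3% of all elements (15.1% higher, 13.1% lower), and N2 had 30 (5 higher, 25 lower), against 32% (17.4% higher, 14.7% lower). Between t3 and t2, CB4856 had 17 members called (4 higher, 13 lower), against 13% of all elements (5.63% higher, 7.38% lower), and N2 had 32 (7 higher, 25 lower), against 18.5% (8.91% higher, 9.57% lower). The difference between these counts was not tested as such, and the test of each member's strain by age difference called none.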

How the data were processed

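Total RNA of whole worms was labelled and hybridized to two-colour oligonucleotide arrays by the authors, 1 array per scanner file. The deposited intensities are linear mean spot and median local background signals in Cy3 and Cy5, not normalized, per the file headers. The deposited log2 table, which per the labels the authors normalized with limma (version not given in the sources used here), holds N2 over CB4856, a direction checked against the scanner values, and served only as an alternative. Its centring is unknown.

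Intensities were background-corrected in limma 3.58.1 (R 4.3.3; normexp, offset 50), then normalized by global loess within arrays and by quantiles between arrays. Of 23232 spots, 742 control or empty spots were left out, which gave 22490 elements. Log2 ratios (CB4856 over N2) were fitted over all 14 arrays with a coefficient per age and a dye term, and age changes on the mean log2 of both dyes. The strain by age test was the difference of log2 ratios between ages, and age steps within a strain used a single-channel fit (intraspot correlation 0.423). P-values were moderated by limma and adjusted by Benjamini-Hochberg over all elements. An element not above background on every array of a group was given as a bound, from means after loess and Aquantile normalization, a step that dye bias can affect. On simulated arrays modelled on the t1 strain comparison, 83% of 2-fold and 99% of 4-fold changes among 22490 elements were recovered. For t2 against t1 the shares were 75% and 92%, and for strain by age t2 against t1 they were 66% and 97%. The percentage of false calls was 5.7, 6.18 and 1.81, in that order. Whether these shares hold for the measured arrays was not tested.

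The members and lists were chosen with earlier results of these data known. Full values are given for members called in a strain comparison and for the 6 largest called age changes in each direction; other members appear by role, and list genes where called, at most 4 a list. Gene names came from the files and a RefSeq table, and no coordinates are given because the files name no build. The methods speak of 6 replicates per age, where 5, 4 and 5 arrays were used here. The physiological-age model, outlier removal and joint normalization with other arrays in the methods were not repeated. Whether arrays with exchanged dyes share RNA extracts is unknown. Alternatives covered background correction, normalization, scanner flags, low signals, dye, scan session, replicate numbers, thresholds and each array left out.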

Additional observations from a re-analysis of the deposited data

Results flagged for a closer look

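In each age, the mean log2 level of every member element and the log2 ratio of the named elements were searched for 1 array set apart from the others by more than Dixon's criterion. This picked out 22 of 249 groups of levels and 1 of 15 groups of ratios, where chance picks about 1 in 20. Of the arrays, t3 replicate 3 was set apart for 7 elements and t3 replicate 5 for 5.

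On t3 replicate 5, acox-1.1 stood at 12.40 (others 7.46 to 7.83), acs-24 element 1 at 10.62 (6.14 to 6.37), acs-18 at 10.5 (6.50 to 7.58), acdh-13 element 1 at 9.87 (5.91 to 6.15) and acox-1.2 element 2 at 8.07 (6.17 to 6.50). All 5 were high on that array.

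On t3 replicate 3, acdh-12 stood at 9.34 (others 10.24 to 10.54), ech-6 at 10.39 (11.24 to 11.56), acox-1.4 element 3 at 6.91 (7.86 to 8.10) and acs-10 at 6.51 (7.61 to 7.81), all low. On the same array acox-1.5 stood at 8.27 (6.89 to 7.06), acs-16 at 7.75 (7.14 to 7.29) and ech-9 at 8.85 (6.42 to 6.72), all high.

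On t3 replicate 1, cpt-1 stood at 10.66 (others 11.44 to 11.65), ech-1.2 element 2 at 11.71 (10.56 to 10.78) and acs-15 at 6.59 (6.19 to 6.30). On the t2 arrays, ech-5 stood at 11.24 on replicate 3 (6.60 to 6.97), acox-1.3 element 2 at 6.72 on replicate 3 (6.41 to 6.45) and acox-1.3 element 4 at 9.83 on replicate 4 (9.03 to 9.14).

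On the t1 arrays, acdh-4 stood at 8.06 on replicate 1 (others 7.03 to 7.28), acs-15 at 7.39 on replicate 1 (6.75 to 6.81), acdh-6 at 9.57 on replicate 2 (8.60 to 8.86) and acs-21 element 2 at 6.56 on replicate 3 (6.09 to 6.22). The 1 ratio set apart was that of acox-3 at t2, −2.53 on replicate 2 against −0.82 to −0.69 on the others.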

How the results depend on the processing

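Single values were recomputed under alternatives for the strain calls and the 6 largest called age changes in each direction. Of these 1004 values, 880 kept their call, 124 lost it and 0 reversed. Smaller calls outside this choice did reverse without normalization between arrays, such as kat-1 between t3 and t2 (−0.46, then 0.68). Of the 31 members called in that step, 28 kept their sign. Over all elements, the alternatives listed for strain called 0.729 to 2.83% at t1 and 0.391 to 3.19% at t2. The strain count at t1 (2) was 1 without normalization between arrays, with Aquantile, with scan session as a factor, at an adjusted p under 0.01, with the deposited table and with the t1 arrays alone, and 0 with only spots of scanner flag code 3 and with arrays of 1 age and number averaged. The strain count at t2 (1) was 0 without background correction, without normalization between arrays, with Aquantile, flag code 3, scan session, an adjusted p under 0.01, the deposited table, the t2 arrays alone and the methods' linear model at p under 0.01, and 2 with a replicate block, averaged arrays and no dye term. The strain count at t3 (3) was 1 without background correction, with averaged arrays and at an adjusted p under 0.01, 0 with flag code 3, 6 with the deposited table (7.09% of all elements) and 5 with the methods' linear model (3.37% of all elements). The age count for t2 against t1 (35) was 18 without normalization between arrays (16.9% of all elements) and 13 with flag code 3 (35.6% of the 5142 elements tested). That for t3 against t2 (31) was 11 with flag code 3 (19.9% of 6367) and 18 with averaged arrays (10.8% of all elements) or at an adjusted p under 0.01 (10.4%), and that for t3 against t1 (43) was 20 with flag code 3 (55.4% of 5635). Flag code 3, chosen after seeing the data, left fewer elements tested, and averaging left fewer samples. The planned use of the most frequent flag code was not run. Elsewhere the cause was not tested.

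Leaving out each array in turn gave 1 to 6 strain calls at t1, 0 to 4 at t2 and 1 to 4 at t3, and 31 to 37, 24 to 34 and 39 to 44 age calls for t2 against t1, t3 against t2 and t3 against t1. The strain by age counts were 0 to 0, 0 to 0 and 0 to 1. The main fits did not pair arrays by replicate number. Deviations of same-numbered arrays (same label number and same dye order, different ages) correlated at −0.343 to 0.321 for ratios, with 5 of 13 pairs over 0.1. For levels they correlated at −0.048 to 0.278, with 7 of 13 pairs over 0.1. All other pairs across ages correlated at 0.139 or less for levels. The pair at 0.139, t1 replicate 4 and t3 replicate 1, shares its label number but not its dye order. Same-numbered arrays may therefore not be independent in the age comparisons. With the replicate block the counts were 3, 2 and 3 for strain, 36, 31 and 47 for age, and 1 for strain by age t3 against t1 (0 without it). Signals near background limit 10 members that were never above it.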
